A study of Mus musculus with 39 samples.

Results

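The Dlk1-Dio3 cluster is an imprinted domain on mouse chromosome 12 in which the chromosome copy inherited from the mother expresses a series of non-coding RNAs and the copy inherited from the father expresses protein-coding genes. The maternal non-coding RNAs Meg3, Rian and Mirg lie one after the other on the same strand. Small nucleolar RNAs and a large group of microRNAs are made from the same transcribed stretch. The paternal genes are Dlk1, whose protein is a membrane-bound relative of Notch ligands, Rtl1, which derives from a retrotransposon, and Dio3, which encodes a deiodinase that inactivates thyroid hormone. These genes are known for high expression in the fetus and placenta and for low levels in adult liver. The members were all probe sets whose only gene symbol in the platform annotation was Dlk1, Meg3, Rtl1, Rian, Mirg or Dio3. This gave 4 of the 18193 genes with a probe set of their own and 19 of 45037 probe sets, of which 11 were assigned to Meg3, 4 to Rian, 2 to Mirg and 2 to Dlk1. The annotation assigned 0 probe sets to Rtl1 and 0 to Dio3, so both genes were not analysed here.

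Whole liver RNA of male B6C3F1/Crl mice, the offspring of a C57BL/6 and C3H/He cross, was measured on 39 Affymetrix mouse arrays. On arrival the animals were aged 29 to 32 days, and 5 days of acclimatisation followed. Treated mice drank water with phenobarbital at 0.05% (w/v) for 1, 7, 28 or 91 days, and the labels name the other arrays of each time as controls without stating what the controls drank. There were 4 control arrays at day 1 and 5 arrays in every other group, 8 groups in all. Replicate numbers used here are the order of the samples within a group and are not from the labels. Phenobarbital is an anticonvulsant that activates the nuclear receptor CAR in hepatocytes and promotes liver tumours in mice. The labels do not state that arrays of a group came from separate animals, so the p-values measure only the spread between these arrays. Values are log2 signals as deposited. Differences are treated minus control in log2 units, each with its standard error (SE), and adjusted p-values are from limma with the Benjamini-Hochberg method over all 45037 probe sets. A probe set was called, and is said to have risen or fallen, at an adjusted p under 0.05.

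The arrays matched the tissue label, since the mean log2 signal of 5 hepatocyte markers lay between 14.23 and 14.47 on all arrays. Replicates had Pearson correlations over all probe sets of 0.989 to 0.997. On day 1 treated replicate 3 the mean of 5 exocrine pancreas markers was 11.23, against 7.10 or less on all other arrays. On day 7 treated replicate 3 the mean of 6 Kupffer cell markers was 9.88, against 9.09 or less elsewhere. Several differences at days 1 and 7 are therefore also given without these arrays, while others and the counts include them. Cyp2b10, the usual marker gene of CAR activation, rose by 6.21, 6.36, 6.90 and 5.64 at days 1, 7, 28 and 91.

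The promoters of Meg3 and Rian, the genes with the largest differences, are shown from 250 bases before to 50 bases after the annotated start. All come from RefSeq on build GRCm38.p6, on the plus strand. Capitals mark matches to TGACGTCA (the cyclic AMP response element, CRE), TATAAA and CCAAT, searched on both strands.
Meg3, chr12:109540746-109541045: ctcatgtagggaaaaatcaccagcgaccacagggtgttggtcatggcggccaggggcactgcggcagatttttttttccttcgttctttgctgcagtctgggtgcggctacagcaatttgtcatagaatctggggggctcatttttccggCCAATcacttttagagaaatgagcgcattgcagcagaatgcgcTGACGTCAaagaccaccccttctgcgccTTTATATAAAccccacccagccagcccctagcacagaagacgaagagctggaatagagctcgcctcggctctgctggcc
Rian, chr12:109603695-109603994: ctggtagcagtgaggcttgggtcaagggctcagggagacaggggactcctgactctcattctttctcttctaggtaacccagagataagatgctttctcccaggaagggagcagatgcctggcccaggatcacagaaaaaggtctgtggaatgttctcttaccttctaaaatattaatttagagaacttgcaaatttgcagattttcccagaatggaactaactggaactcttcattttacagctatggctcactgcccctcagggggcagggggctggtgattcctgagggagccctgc
The Meg3 window held TGACGTCA 57 bases before the start, TATAAA 25 bases before it with an overlapping match on the other strand, and CCAAT 100 bases before it. TGACGTCA was present in 1.79%, TATAAA in 13.6% and CCAAT in 37.4% of 32851 promoter windows of the same length. The Rian window held none of these letters. Neither held AGGTCA, the nuclear receptor half-site, or its direct repeat DR4, which 16.3% and 0.0152% of the windows held. RefSeq lists another Meg3 start, with the window chr12:109545148-109545447, which held AGGTCA 141 bases before the start on the other strand.

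The RefSeq table placed 61 microRNA genes between Dlk1 and Dio3, with 113 mature names. Of these genes, 2 lay within the span of Meg3, 3 within Rian and 10 within Mirg, 42 lay between these spans on the same strand and 4 lay on the opposite strand. The probe sets described here do not measure mature microRNAs, and the sequences shown are examples from within and between these spans. Capitals mark the seed, bases 2 to 8, which pairs with target RNAs.
miR-770-3p: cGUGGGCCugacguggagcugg
miR-370-3p: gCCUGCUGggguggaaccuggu
miR-453: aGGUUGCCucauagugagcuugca
miR-496a-5p: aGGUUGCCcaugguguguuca
miR-410-5p: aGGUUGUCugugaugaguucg
miR-494-5p: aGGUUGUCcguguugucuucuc
miR-410-3p: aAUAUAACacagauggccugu
The first lies within Meg3, the next within Rian, and miR-453, miR-496a-5p, miR-410-5p and miR-410-3p within Mirg, while miR-494-5p lies between these spans. The mature forms miR-453 and miR-496a-5p share their seed, as do miR-410-5p and miR-494-5p. Among the mature names of the cluster, 9 seeds were shared, by 18 names in all.

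Meg3 and Rian RNA were severalfold higher after 28 and 91 days of phenobarbital, whereas after 1 day none of their probe sets passed the test and after 7 days only 1 Rian probe set did. The differences of Mirg that were called at the late times were 0.29 to 0.53 log2 units. Dlk1 was called higher at no time and fell at day 91, by 0.33 or less. At day 28, 10 of the 19 probe sets rose and 0 fell, where 10.9% of all probe sets rose and 14.2% fell. At day 91, 15 rose and 2 fell, where 5.7% of all probe sets rose and 10.5% fell. The share of members that fell at day 91 was thus the same as in the background. At day 1, 0 rose and 1 fell, against 12.1% and 14.1% of all probe sets, and at day 7, 1 rose and 0 fell, against 4.73% and 7.09%. The median difference of the 19 was 0.03 at day 1, -0.03 at day 7, 0.53 at day 28 and 0.71 at day 91, and that of all probe sets was 0.01, -0.03, -0.00 and -0.04.

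**Figure D1:**
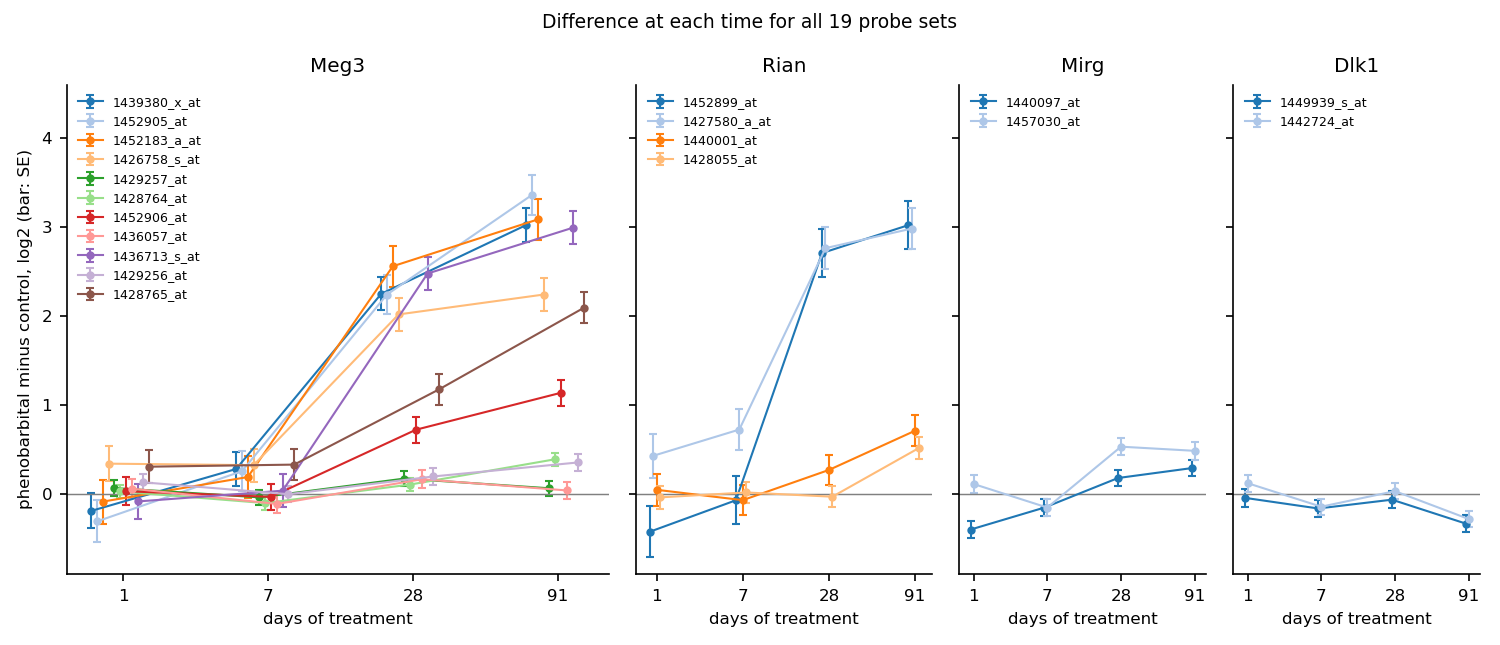
Phenobarbital minus control in log2 units (vertical axis, with SE) at 1, 7, 28 and 91 days (horizontal axis, evenly spaced) for the 11 Meg3, 4 Rian, 2 Mirg and 2 Dlk1 probe sets, 1 line each. The differences of 5 Meg3 and 2 Rian probe sets exceeded 2 at days 28 and 91, while those of both Dlk1 probe sets stayed between -0.33 and 0.12.

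Meg3 is a spliced long non-coding RNA that is retained largely in the nucleus. Its brightest probe set, 1439380_x_at, had control signals at day 28 of 8.72, 8.91, 8.38, 8.50 and 9.08. The treated signals of that day were 11.16, 10.99, 10.94, 10.62 and 11.12. All 5 treated arrays lay above the highest control, and the difference was 2.25 (SE 0.19, adjusted p = 3.31e-11), or 4.75-fold. At day 91 the controls had 8.58, 8.62, 7.87, 8.38 and 8.70, and the treated arrays had 11.43, 10.78, 12.15, 11.76 and 11.13. The groups again did not overlap, and the difference was 3.02 (SE 0.19, adjusted p = 1.06e-14), or 8.12-fold. The SD of the treated arrays was 0.54 at day 91 and 0.22 at day 28 (n = 5 each), with replicate 3 highest and replicate 2 lowest.

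At the early times the same probe set showed overlapping groups. At day 1 the controls had 8.32, 8.03, 7.91 and 8.29 and the treated arrays 7.90, 8.18, 7.89, 7.80 and 7.97, a difference of -0.19 (SE 0.20, adjusted p = 0.514). Without treated replicate 3 of day 1 the difference was -0.18 (adjusted p = 0.583). At day 7 the controls had 8.18, 8.32, 7.97, 7.83 and 7.96 and the treated arrays 8.51, 8.91, 7.89, 8.26 and 8.10. Treated replicates 1 and 2 lay above all controls and replicate 3 lay below the control median. The difference of 0.28 (SE 0.19, adjusted p = 0.345) was not called, and without treated replicate 3 it was 0.39 (adjusted p = 0.191). Replicate 2 was the highest of the 5 treated arrays of that day in 9 of the 11 Meg3 probe sets, and replicate 3 was the highest in 0. Over the 11 Meg3 probe sets the differences ran from -0.31 to 0.34 at day 1 and from -0.11 to 0.33 at day 7, and none was called. For 1428765_at all treated arrays of day 1, at 4.22 to 4.49, lay above the controls, at 3.89 to 4.16.

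**Figure D2:**
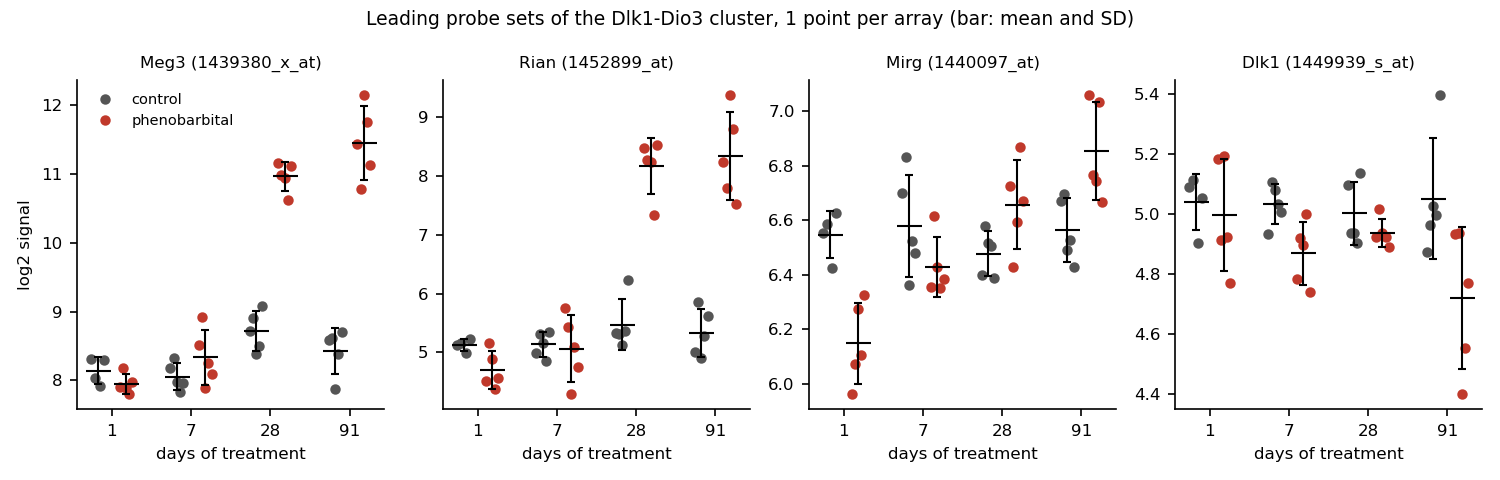
Log2 signal (vertical axis, a separate range for each gene) of the brightest probe set of Meg3, Rian, Mirg and Dlk1 by days of treatment, 1 point per array, with mean and SD. Meg3 and Rian of treated arrays lie above all controls at days 28 and 91, while Dlk1 spans only 4.40 to 5.40 over all arrays.

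The 11 Meg3 probe sets fell along a range. At day 28, 7 of them rose and 0 fell, and at day 91, 9 rose and 0 fell. The probe sets 1452905_at, 1452183_a_at, 1426758_s_at and 1436713_s_at behaved much like the brightest, with differences at day 28 of 2.24, 2.56, 2.02 and 2.48 and at day 91 of 3.36, 3.08, 2.24 and 2.99. Probe set names ending in _s_at or _x_at mark designs that may also match other transcripts, and 1452905_at has neither ending. Its treated signals at day 91 were 11.06, 10.12, 11.69, 11.46 and 10.28 against 7.84, 7.82, 6.85, 7.75 and 7.56 in controls, so that the groups did not overlap. The difference was 10.3-fold (SE 0.22 on the log2 scale, adjusted p = 5.92e-14).

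The other Meg3 probe sets had smaller differences. For 1428765_at the difference was 1.18 at day 28 (SE 0.17, adjusted p = 8.49e-06) and 2.09 at day 91 (SE 0.17, adjusted p = 3.15e-11). For 1452906_at it was 0.72 (SE 0.15, adjusted p = 0.000483) and 1.14 (SE 0.15, adjusted p = 1.52e-06). The probe sets 1428764_at and 1429256_at were called only at day 91, at 0.39 (adjusted p = 0.000364) and 0.35 (adjusted p = 0.0077). Signals were dim for 1428765_at, which exceeded the array median on 3 arrays, and for 1429256_at, which did so on 0. The remaining pair, 1429257_at and 1436057_at, was called at no time, with 0.17 for each at day 28 and 0.06 and 0.04 at day 91. Over the 39 arrays the 7 probe sets called at both late times had pairwise Pearson correlations of 0.90 to 0.99, whereas 1429257_at had 0.13 to 0.35 with the other Meg3 probe sets. These correlations share the difference between groups and are given as a description. Which part of the transcript each probe set matches was not analysed here, so the size of a difference could not be set against position.

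Rian is the long non-coding RNA downstream of Meg3, and its introns hold small nucleolar RNAs. Its brightest probe set, 1452899_at, had 5.33, 5.31, 5.12, 5.36 and 6.23 in the day 28 controls and 8.48, 8.28, 8.25, 7.34 and 8.54 in the treated arrays. The groups did not overlap, although control replicate 5 was high and treated replicate 4 low for their groups. The difference was 2.71 (SE 0.27, adjusted p = 3.65e-09), or 6.53-fold. At day 91 the controls had 5.01, 5.85, 4.90, 5.28 and 5.61 and the treated arrays 8.24, 7.80, 9.38, 8.80 and 7.53. The lowest treated array was again above the highest control, and the difference was 3.02 (SE 0.27, adjusted p = 2.4e-10), or 8.11-fold. At days 1 and 7 it was -0.42 (SE 0.28, adjusted p = 0.285) and -0.07 (SE 0.27, adjusted p = 0.901), and neither was called. Without treated replicate 3 of each day these were -0.47 (adjusted p = 0.267) and 0.12 (adjusted p = 0.825), so that the day 7 difference had no settled sign.

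The second Rian probe set, 1427580_a_at, had nearly the same differences at the late times, 2.76 (SE 0.23, adjusted p = 5.29e-11) and 2.98 (SE 0.23, adjusted p = 7e-12). It was the only member called higher at day 7. The day 7 controls had 5.35, 4.88, 4.72, 4.94 and 5.22 and the treated arrays 5.99, 6.11, 5.37, 5.81 and 5.44, so that every treated array lay above every control, although the nearest pair, at 5.37 and 5.35, was close. The difference was 0.72 (SE 0.23, adjusted p = 0.0366), and 0.82 (adjusted p = 0.0286) without treated replicate 3. The call was lost when any of 6 arrays of that day was left out (control replicates 2, 3 or 4, or treated replicates 1, 2 or 4), with differences of 0.63 to 0.82 over all arrays left out in turn. At day 1 its treated arrays, at 5.36 to 5.51, also lay above its controls, at 4.80 to 5.12, with a difference of 0.43 that was not called (SE 0.25, adjusted p = 0.204). Without treated replicate 3 of day 1 this difference was 0.41 (adjusted p = 0.265). The difference of 1452899_at had the opposite sign at that time and was not called either. These probe sets of Rian were not tested against each other.

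The remaining Rian probe sets, 1440001_at and 1428055_at, were called only at day 91, at 0.71 (SE 0.17, adjusted p = 0.00451) and 0.51 (SE 0.12, adjusted p = 0.00367). They exceeded the array median on 3 and 0 arrays. Their treated arrays split. For 1440001_at they had 5.75, 5.03, 6.51, 6.38 and 5.11, and replicates 2 and 5 lay within the controls, which ran from 4.78 to 5.37. For 1428055_at they had 3.61, 3.16, 3.81, 4.14 and 2.98, where replicate 5 lay within the controls, which ran from 2.82 to 3.09.

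Mirg, the non-coding RNA downstream of Rian, spans microRNA hairpins, among them that of miR-410 shown above. Its brightest probe set, 1440097_at, was the only member that fell at day 1. The controls had 6.55, 6.58, 6.43 and 6.63 and the treated arrays 5.96, 6.07, 6.27, 6.11 and 6.33, all below the lowest control. The difference was -0.40 (SE 0.10, adjusted p = 0.00216), and -0.43 (adjusted p = 0.002) without treated replicate 3. At day 91 it was on the other side, at 0.29 (SE 0.09, adjusted p = 0.0259), and the change of its effect between days 1 and 91 was 0.69 (SE 0.13, adjusted p = 0.000474). The treated arrays of day 91, at 6.67 to 7.06, overlapped the controls at 6.43 to 6.70. The day 91 call was lost when any of 5 arrays of that day was left out (control replicates 3, 4 or 5, or treated replicates 1 or 4), with differences of 0.24 to 0.34. At day 28 the difference of this probe set was 0.18 (SE 0.09, adjusted p = 0.146) and was not called.

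The other Mirg probe set, 1457030_at, exceeded the array median on 0 arrays and was called at both late times. At day 28 the controls had 4.26, 4.46, 4.57, 4.51 and 4.61 and the treated arrays 5.14, 5.10, 5.01, 4.93 and 4.89. The groups did not overlap, and the difference was 0.53 (SE 0.10, adjusted p = 0.00019), or 1.45-fold. At day 91 it was 0.48 (SE 0.10, adjusted p = 0.00101), with treated replicate 2 and the highest control both at 4.86. At days 1 and 7 it was 0.11 and -0.15, and neither was called.

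Dlk1 is the paternally expressed member measured here, and neither of its probe sets exceeded the array median on any array. Its brightest probe set, 1449939_s_at, had 4.87, 4.96, 5.03, 4.99 and 5.40 in the day 91 controls and 4.93, 4.94, 4.40, 4.55 and 4.77 in the treated arrays. The groups overlapped, and treated replicates 3 and 4 were lowest. The difference was -0.33 (SE 0.09, adjusted p = 0.0137). For 1442724_at it was -0.28 (SE 0.09, adjusted p = 0.0294), also with overlapping groups. Both calls were lost without treated replicate 3, at -0.25 (adjusted p = 0.0682) and -0.23 (adjusted p = 0.103), and both were lost without control replicate 5, at -0.25 (adjusted p = 0.0698) and -0.28 (adjusted p = 0.0529). Only 1 of the calls remained without control replicate 2 or 4 or treated replicate 1. Of 47 alternatives that gave a value, the day 91 call held in 44 for 1449939_s_at and in 38 for 1442724_at. At days 1, 7 and 28 the differences of the pair lay between -0.16 and 0.12, and none was called.

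**Figure D3:**
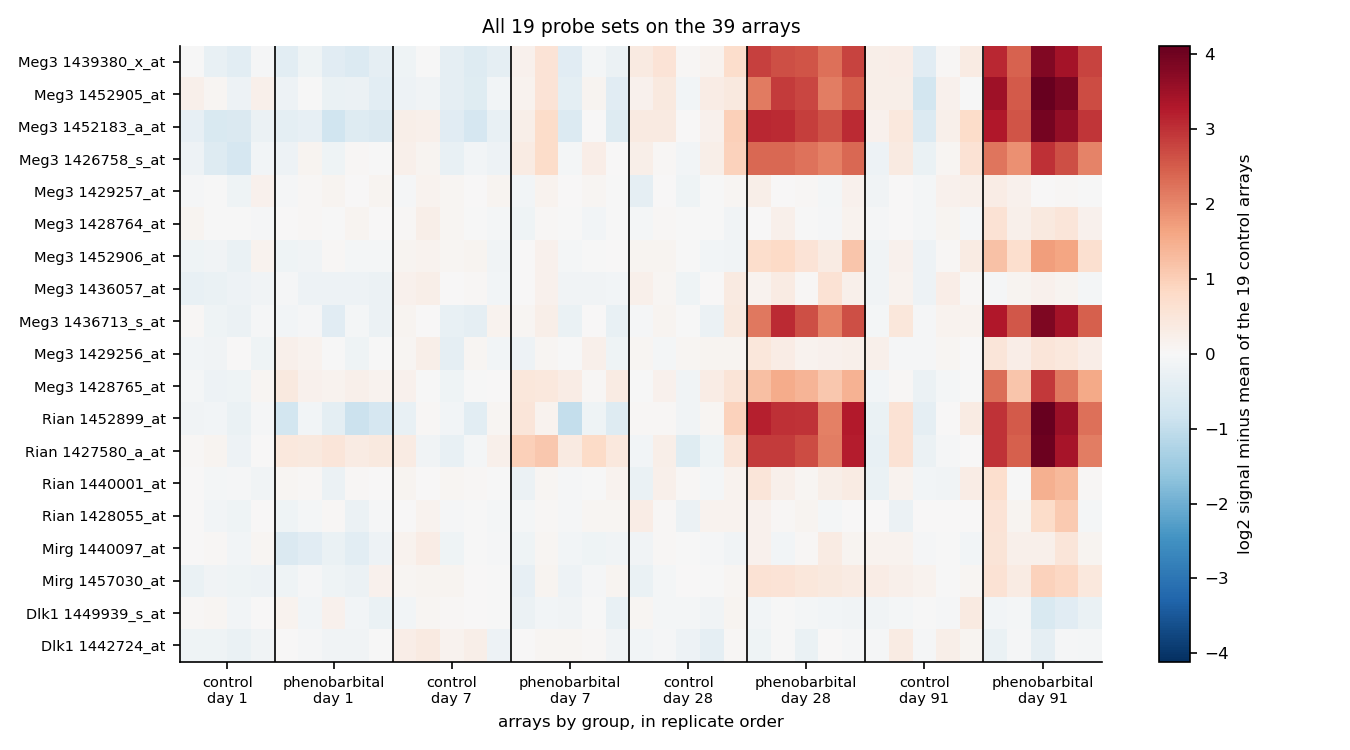
Log2 signal of each of the 19 probe sets (rows) on each of the 39 arrays (columns, by group), as the difference from the mean of the 19 control arrays (colour). The treated arrays of days 28 and 91 are raised for 7 Meg3 and 2 Rian probe sets, and replicates 3 and 4 of day 91 are darker than the other treated arrays of that day.

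Probe sets whose treated arrays all lay above or all below the controls of their day were also counted. There were 2 above and 1 below at day 1, against 10.4% and 11.8% of all probe sets, and 1 above and 0 below at day 7, against 3.69% and 5.82%. At day 28 there were 11 above and 0 below, against 5.47% and 6.56%, and at day 91 there were 12 above and 0 below, against 3.24% and 5.81%. The other 16, 18, 8 and 7 probe sets overlapped at the 4 times.

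The timing of the rise was tested as the difference between the effects at 2 times. Between days 1 and 7 the effect grew in 0 of the 19 probe sets and shrank in 0 in limma, where 5.84% of all probe sets were called higher and 6.01% lower. Between days 7 and 28 it grew in 10 (Meg3 7, Rian 2, Mirg 1) and shrank in 0, against 3.5% and 4.25%. Between days 1 and 28 it grew in 8 (Meg3 5, Rian 2, Mirg 1) and shrank in 0, against 0.204% and 0.846%, so that members made up 8 of the 92 probe sets called higher in that comparison. Several of these probe sets belong to the same gene and are not separate observations. Between days 7 and 91 the effect grew in 11 (Meg3 8, Rian 2, Mirg 1) and shrank in 0, against 0.138% and 0.109%, which made members 11 of the 62 called higher. Between days 1 and 91 it grew in 12 and shrank in 1, the Dlk1 probe set 1442724_at, against 8.99% and 9.98%.

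For the brightest Meg3 probe set the effect grew by 1.97 (SE 0.26, adjusted p = 0.0001) between days 7 and 28, and for the brightest Rian probe set by 2.78 (SE 0.38, adjusted p = 0.000126). Between days 28 and 91 it grew in 4 probe sets and shrank in 0, against 7.35% and 7.15% of all probe sets. These were Meg3 1439380_x_at at 0.77 (adjusted p = 0.0425), 1452905_at at 1.12 (adjusted p = 0.0148) and 1428765_at at 0.92 (adjusted p = 0.0107), and Rian 1428055_at at 0.54 (adjusted p = 0.0279). The count ranged from 2 to 5 when 1 array was left out, and it was 2 without day 28 control replicate 1, day 28 treated replicate 4, or day 91 treated replicate 3 or 4. Of the 4 probe sets, 1428765_at and 1428055_at exceeded the array median on 3 and 0 arrays. The mean signal of the hybridization and labelling spike-ins differed between the groups of day 7, at 9.58 to 10.27 in controls and 10.76 to 10.97 in treated arrays. With that mean in the model the effect grew in 1 probe set between days 7 and 28 and in 0 between days 28 and 91, where the 3' and 5' control difference as a covariate also left 0. The share of all probe sets called in these fits was not counted, so a general loss of calls cannot be told from a loss among members.

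Over all 4 effects, 13 of the 19 probe sets depended on time by the F test, where 21.5% of all probe sets did. The smallest adjusted p-values were 2.66e-11 for Meg3 1436713_s_at and 7.58e-11 for Meg3 1439380_x_at. Cyp2b10 had its rise by day 1, and the change of its effect between days 1 and 7 was 0.15 (SE 0.30, adjusted p = 0.806), so the rises of Meg3 and Rian were seen at later times than that of Cyp2b10.

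The members were also compared between times in controls. Between days 1 and 28, 3 of 19 probe sets (15.8%) rose and 0 fell, where 4.27% of all probe sets rose and 5.79% fell. The share that rose was thus above that of all probe sets. All 3 were of Meg3, the largest being 1452183_a_at at 0.83 (SE 0.25, adjusted p = 0.0253). This count ran from 0 to 4 with 1 array left out, and it was 0 without day 1 control replicate 2 or 3 or day 28 control replicate 5. In the last of these Meg3 and Rian were high for their group. Between days 1 and 7, 2 rose and 0 fell (12.6% and 11.7%), and between days 1 and 91, 2 rose and 0 fell (10.9% and 10.9%), with counts of 1 to 3 and of 1 to 5 when 1 array was left out. Control differences of members over time were at most 0.83, against treatment differences of up to 3.36.

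Within groups, Meg3 and Rian varied together from array to array. Each array's deviation from the mean of its group was taken for the brightest probe sets, and over the 39 arrays Pearson's r was 0.82 and Spearman's rho 0.79. Both had a p of 1e-05 by permutation within groups, the smallest that 100000 permutations can give, or 9e-05 adjusted over 9 relations. Without the 2 arrays farthest from the median Meg3 deviation r was 0.78. It was 0.93 in the 10 treated arrays of days 28 and 91 and 0.73 in the other 29. The relation was thus also seen outside the treated arrays of days 28 and 91. The other 29 included treated arrays of the earlier times, some with Meg3 and Rian signals above all controls of their day. The relation in control arrays alone was not tested.

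The relations of Meg3 and Rian with Mirg did not pass the test, with r of 0.23 (rho 0.20, adjusted permutation p = 0.42) and -0.01 (rho 0.01, adjusted permutation p = 0.973). Relations with 2 technical measures did not pass the adjustment either. For the spike-in mean r was -0.11 with Meg3 and -0.24 with Rian over all arrays. In the 10 treated arrays of days 28 and 91 it was 0.49 and 0.23, and in the other 29 it was -0.27 and -0.41. These parts were not tested. For the difference between 3' and 5' control probe sets r was -0.14 and -0.33, the last with a permutation p of 0.0463 and an adjusted p of 0.209. In the day 91 treated group, replicate 3 was the highest of the 5 arrays in 12 of the 15 Meg3 and Rian probe sets and the lowest in both Dlk1 probe sets.

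**Figure D4:**
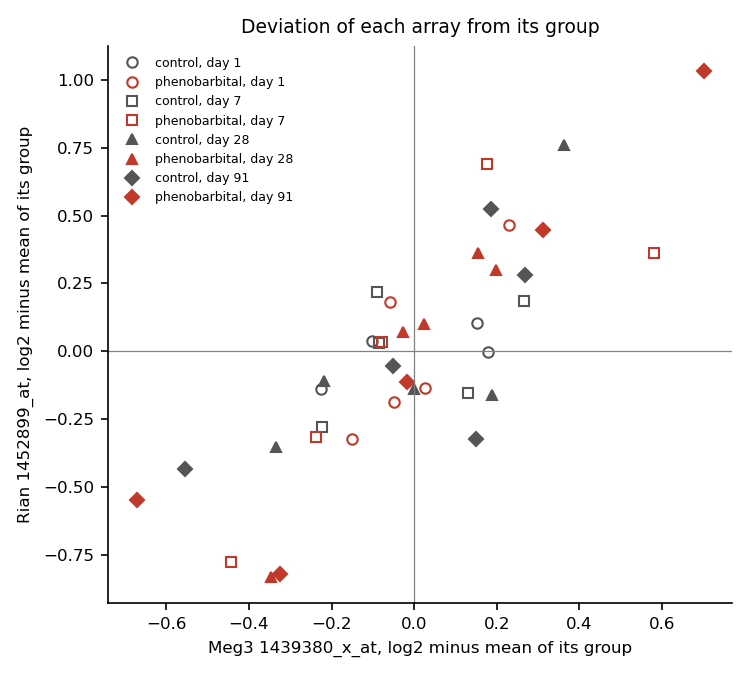
Deviation of each of the 39 arrays from its group mean for Meg3 1439380_x_at (horizontal axis, log2) and Rian 1452899_at (vertical axis, log2), with colour for treatment and shape for time. Arrays high in Meg3 for their group were also high in Rian (r = 0.82), with day 91 treated replicate 3 farthest to the upper right.

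Genes in and around the cluster were examined to see how far the difference extended. The gene order table of GRCm38.p6 held 97 other genes from Dlk1 to Dio3, of which 61 were microRNAs, 19 small nucleolar RNAs, 13 long non-coding RNAs and 4 pseudogenes. Only 3110009F21Rik and Dio3os, a transcript antisense to Dio3, had a probe set of their own, and 0 of the 2 were called at any time in limma, with differences at day 91 of 0.01 and 0.03. Of the 20 nearest measured genes, 10 on each side, 1 rose and 2 fell at day 28, where 11.7% of all genes rose and 13.2% fell. At day 91 again 1 rose and 2 fell, where 4.94% rose and 12.8% fell. Their median difference was 0.01 at day 28 and -0.04 at day 91.

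Among the flanking genes called, Hsp90aa1, a heat shock chaperone, rose by 0.43 (adjusted p = 0.012) at day 28 and by 0.36 (adjusted p = 0.0464) at day 91. At day 28 Slc25a47, a mitochondrial carrier, fell by 0.49 (adjusted p = 0.0421) and Yy1, a zinc finger transcription factor, by 0.28 (adjusted p = 0.0114). At day 91 Degs2, a sphingolipid hydroxylase, fell by 0.37 (adjusted p = 0.0258) and Dync1h1, a dynein heavy chain, by 0.24 (adjusted p = 0.0128). At day 1, 0 rose and 2 fell (14.2% and 11.9% of all genes), and at day 7, 0 rose and 1 fell (5.18% and 8.1%). All 22 other genes of the region, both kinds together, lay between -0.49 and 0.43 at day 28 and between -0.47 and 0.40 at day 91.

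**Figure D5:**
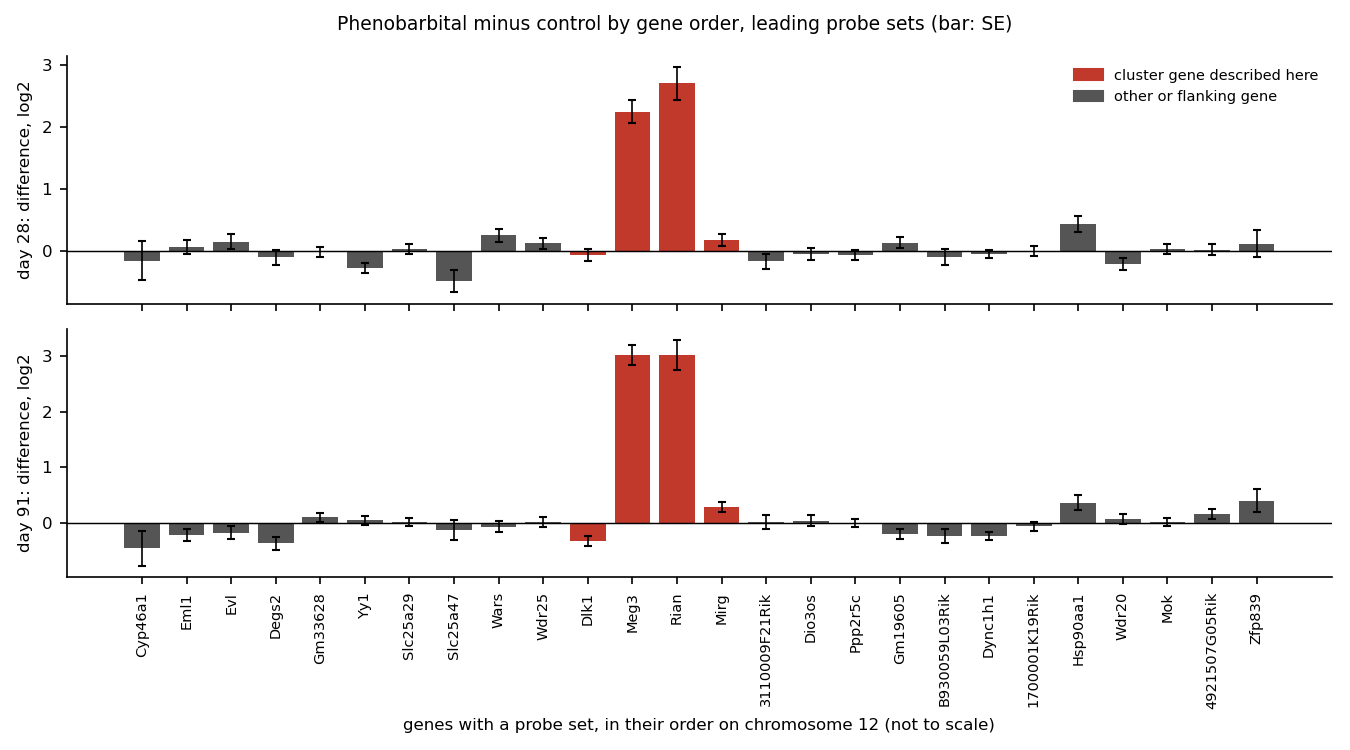
Phenobarbital minus control (vertical axis, log2, with SE) at days 28 and 91 for the brightest probe set of each measured gene, in gene order along chromosome 12 and not to scale. Meg3 and Rian reach 2.25 and 2.71 at day 28 and 3.02 at day 91 each, while the 22 other and flanking genes stay between -0.49 and 0.43.

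Imprinted genes of other chromosomes and domains were also counted. Over all genes, each by its brightest probe set, 14.2% rose and 11.9% fell at day 1, 5.18% and 8.1% at day 7, 11.7% and 13.2% at day 28, and 4.94% and 12.8% at day 91. Of 30 imprinted genes elsewhere, 6 rose and 2 fell at day 28, with a median difference of 0.13, and 2 rose and 5 fell at day 91, with a median of 0.00. Those that rose at day 91 were Asb4, at 0.86 (adjusted p = 3.96e-07), and Peg10, at 0.39 (adjusted p = 0.00214), which lie in the same imprinted domain on another chromosome. Sgce, a further gene of that domain, fell by 0.35 (adjusted p = 0.0409). At that day Slc38a4, an amino acid transporter, fell by 0.23 (adjusted p = 0.00168) and Ndn by 0.28 (adjusted p = 0.0348). At day 1, 8 rose and 1 fell, and at day 7, 3 rose and 0 fell.

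Among 17 measured regulators of imprints and DNA methylation, 1 rose and 4 fell at day 28, where 11.7% of all genes rose and 13.2% fell, and 1 rose and 1 fell at day 91, where 4.94% rose and 12.8% fell. Tet1, a dioxygenase that oxidises 5-methylcytosine, rose by 0.47 (SE 0.12, adjusted p = 0.00313) and 0.39 (SE 0.12, adjusted p = 0.0194) at these times. Dnmt3a, a DNA methyltransferase, fell by 0.48 (SE 0.09, adjusted p = 0.0003) at day 28. Dnmt3l, a cofactor of these enzymes, fell by 0.31 (SE 0.08, adjusted p = 0.00954) at day 91. At day 1, 4 rose and 3 fell (14.2% and 11.9% of all genes), and at day 7, 0 rose and 2 fell (5.18% and 8.1%).

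The genes whose level over the 39 arrays was most like that of Meg3, among 18167 genes outside the region, were Nebl (Pearson's r 0.97), Kcnk1 (0.95), Gm10419 (0.94), Cyp2d12 (0.92), Tmeff2 (0.90), Cyp2c65 (0.87), Gna14 (0.85) and Slc13a2 (0.83). For Rian they were Nebl (0.95), Gm10419 (0.92), Kcnk1 (0.92), Cyp2d12 (0.90), Tmeff2 (0.86), Cyp2c65 (0.84), Gna14 (0.83) and Dnaja4 (0.80), so that 7 of 8 were shared. Nebl encodes an actin-binding protein, Kcnk1 a potassium channel, and Cyp2d12 and Cyp2c65 are cytochromes P450. The arrays share the group differences, and these values are a description. By Spearman's rho 2 of the 8 stayed among the nearest 8 for each gene, and by group means 4 did.

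Markers of some other liver cells were lower in treated livers, at day 7 as well as at the late times, and in whole liver RNA fewer cells of a type and less RNA per cell cannot be told apart. Of 9 stellate cell markers, 0 rose and 5 fell at day 28 (median -0.39), and 0 rose and 3 fell at day 91 (median -0.17). The mean over this list lay between 8.79 and 8.88 in the day 28 controls and between 8.32 and 8.72 in the treated arrays, and between 8.63 and 8.86 against 8.38 and 8.56 at day 91. Of 7 endothelial markers, 0 rose and 5 fell at day 28 (median -0.28), and 0 rose and 2 fell at day 91 (median -0.08). The means of this list overlapped, at 8.16 to 8.62 in controls and 7.88 to 8.35 in treated arrays at day 28, and at 7.88 to 8.19 and 7.81 to 8.07 at day 91. The shares of all genes that fell were 13.2% and 12.8% at these times. At day 7, when 1 member had risen, 3 of the 9 stellate cell markers fell (median -0.21) and 3 of the 7 endothelial markers fell (median -0.23), where 8.1% of all genes fell, and none of either list rose. At day 1, 1 stellate cell marker rose and 1 fell (median -0.10), and 2 endothelial markers fell (median -0.17), where 11.9% of all genes fell. The 5 hepatocyte and 6 Kupffer cell markers were called at neither late time, with Kupffer cell medians of -0.11 and -0.10. The mesothelial marker mean was 5.51 in controls and 5.26 in treated arrays at day 7. It was 5.05 and 5.09 at day 28 and 5.17 and 4.92 at day 91. For erythroid markers the control and treated means were 7.71 and 7.91 at day 28 and 7.92 and 7.67 at day 91. These means were not tested. Several stellate cell and endothelial markers were thus lower both in the groups in which Meg3 and Rian were severalfold higher and at day 7, when they were not, and their part in the result was not tested. The difference between 3' and 5' control probe sets, a sign of RNA quality, was 0.516 to 0.806 in the day 28 controls and 0.423 to 0.503 in the treated arrays. With it in the model, every Meg3 and Rian probe set called at both late times kept both calls.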

How the data were processed

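Whole liver RNA of 39 samples was hybridised to Affymetrix mouse arrays. The deposited values are log2 signals. How they were normalized and summarized before deposit is not given in the sources used here. GCOS is the tool named in the submitters' processing notes, with no version. Values were used without rescaling or filtering. Durations were taken from each sample's label, up to 91 days, although the protocol text speaks of 28. Precision is limited by the number of arrays.

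Probe sets were named from the platform annotation, and the 19 members are all named. A gene's brightest probe set, by mean over all arrays, stands for it where 1 value is given. The members and gene lists were chosen with earlier results of these data known. Of the lists, 30 imprinted genes, 17 regulators and the markers had single-gene probe sets. H19 was not analysed here.

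A model with 1 mean per group (8 groups) was fitted over 45037 non-control probe sets with limma 3.58.1 (R 4.3.3). Variances were moderated with a trend on mean signal, with 31 residual degrees of freedom and 5.91 prior ones. P-values are 2-sided and Benjamini-Hochberg adjusted within each comparison. Correlations of deviations used 100000 permutations within groups in Python 3.11.15. The procedure was tested on simulated data. Alternatives were quantile normalization, median centring, a filter on dim probe sets, other prior variances, array weights, only the arrays compared, technical covariates, no _s_at or _x_at probe sets and leaving out each array. Promoters and microRNAs are from RefSeq tables.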

Additional observations from a re-analysis of the deposited data

Results flagged for a closer look

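In 10 of 152 groups of a member's values, the highest or lowest array stood apart from the rest by Dixon's criterion, where chance gives about 7.6 (1 in 20). In Rian 1452899_at, day 28 control replicate 5 had a log2 signal of 6.23 against 5.12 to 5.36 in the other controls. In the same probe set, day 28 treated replicate 4 had 7.34 against 8.25 to 8.54. In Meg3 1452905_at, day 91 control replicate 3 had 6.85 against 7.56 to 7.84. Smaller gaps were found for Meg3 1452906_at (5.73, day 7 control replicate 5), 1436057_at (5.89, day 1 treated replicate 1) and 1429256_at (4.55, day 28 control replicate 2). They were also found for Rian 1440001_at (4.81, day 1 treated replicate 3) and 1428055_at (2.82, day 91 control replicate 2). The last were Mirg 1440097_at (6.62, day 7 treated replicate 2) and Dlk1 1442724_at (4.73, day 7 treated replicate 5).

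The effect of phenobarbital differed between the 4 times by limma's F test in 13 probe sets. For Meg3 the adjusted p was 7.58e-11 for 1439380_x_at, 5.23e-10 for 1452905_at, 7.87e-09 for 1452183_a_at, 8.95e-07 for 1426758_s_at, 0.00345 for 1428764_at, 0.000167 for 1452906_at, 2.66e-11 for 1436713_s_at and 8.73e-06 for 1428765_at. For Rian it was 1.47e-08 for 1452899_at, 5.66e-07 for 1427580_a_at and 0.0335 for 1428055_at. For Mirg it was 0.000678 for 1440097_at and 0.000911 for 1457030_at.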

How the results depend on the processing

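Of 11765 recomputed differences under 10 alternatives and with each of 39 arrays left out, 173 had the opposite sign, and 0 of these were called in the reported or the alternative fit. Among them was Rian 1452899_at at day 7 (-0.07 as reported), at 0.33 with the mean of the spike-ins in the model and 0.12 without treated replicate 3. The calls of the brightest Meg3 and Rian probe sets at days 28 and 91 held in all 48 that gave a value. Mirg 1440097_at was called at day 28 with quantile normalization (0.26, adjusted p = 0.0381 in limma) and no longer at day 91 with only the arrays of that day (0.29, adjusted p = 0.0727). At day 91 its difference ranged from 0.24 to 0.34 with 1 array left out. With only the arrays compared, Rian 1452899_at was called lower at day 1 (-0.42, adjusted p = 0.0401), members called were 2 higher and 3 lower at day 1, 2 higher at day 7 and 0 lower at day 91, and the effect grew between days 28 and 91 in 1. Members lower at day 91 (2 as reported) were 0 with the filter and 1 with median centring, with either technical covariate or without _s_at and _x_at probe sets. With those left out the effect grew between days 1 and 28 in 5. The effect shrank between days 1 and 91 in 0 with the filter or either covariate (1 as reported), and between days 28 and 91 in 1 with array weights (0 as reported). With the mean of the spike-ins in the model 0 rose at day 7, and the effect grew in 1 between days 7 and 28 (10 as reported). Between days 28 and 91 it grew in 0 with either covariate (4 as reported). In controls, members higher at day 7 than at day 1 (2 as reported) were 1 with the filter, 0 with the spike-in mean and 1 with the 3' and 5' difference. Those higher at day 91 than at day 1 (2 as reported) were 4 with quantile normalization, 1 with the filter, and 5 with array weights or the 3' and 5' difference. With 1 array left out the counts ranged from 0 to 1 higher at day 7 and 0 to 2 lower at day 91. The effect shrank in 0 to 1 between days 1 and 7, days 1 and 91, and days 28 and 91, and grew in 2 to 5 between days 28 and 91. The control counts ranged from 1 to 3, 0 to 4 and 1 to 5 at days 7, 28 and 91 against day 1. Shares of all probe sets called under the alternatives were not counted, so these member counts have no background beside them. The cause of these changes was not tested, beyond the fewer probe sets or arrays that some settings use. No paired analysis was possible because the labels give no replicate numbers, and those used here only follow the order of the samples within a group. Of the 19 probe sets, 12 exceeded the array median on at least 4 arrays, and signals of the other 7, both of Dlk1 included, limit what could be seen of them.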
